A study of Mus musculus with 6 samples.

Results

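The genes described here are those of TGF-beta, activin and BMP signalling in the arcuate nucleus (ARC) of male mice. They were chosen by name: every gene whose symbol starts with Smad, Bmp or Gdf and a digit, with Bmpr or with Acvr, together with *Tgfb1*, *Tgfb2*, *Tgfb3*, *Tgfbr1*, *Tgfbr2*, *Tgfbr3*, *Inha*, *Inhba*, *Inhbb*, *Fst*, *Nog* and *Grem1*. This gave 51 of the 22322 identifiers of the count table. The mice were males that received, from 4 weeks of age and for 16 weeks, an ordinary diet with 16.5% fat (NCD) or one with 60% fat (the high-fat diet, HFD). The study names C57BL/6J wild-type mice, and for locating the Kiss1 neurons of the ARC a cross of Kiss1-Cre with the R26R-EYFP reporter, and which of these gave the sequenced samples was not stated. The ARC was cut out of frozen sections with a laser, and polyadenylated RNA was sequenced from 3 samples per diet, NCD1 to NCD3 and HFD1 to HFD3. Whether a sample was 1 mouse or a pool was not stated, so the spread between samples may be technical in part. Each sample held every cell type of the cut area, and in such bulk tissue fewer cells of a type and less RNA per cell cannot be told apart.

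Ligands of this family are secreted dimers that bind a type II and a type I receptor kinase at the cell surface. The type I receptor phosphorylates receptor-regulated SMADs, which join SMAD4 and act on target genes in the nucleus. TGF-beta and activin signal mainly through SMAD2 and SMAD3, BMPs mainly through SMAD1, SMAD5 and SMAD9, and SMAD6 and SMAD7 inhibit the pathway. Activin A, a dimer of the *Inhba* product, is best known in the reproductive axis as a stimulus of FSH release from the pituitary, where inhibin opposes it and follistatin binds it. In the brain BMPs act on the development and function of neurons and glia, and noggin, an extracellular protein, keeps BMPs from their receptors.

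Libraries NCD1 to NCD3 held 15925648, 9937632 and 6882449 counts, and libraries HFD1 to HFD3 held 8024664, 10479778 and 5171381. A count of 3, taken as the detection floor, equalled 0.188 CPM (counts scaled by library size) in the largest library, NCD1, and 0.58 CPM in the smallest, HFD3, and this floor covers counting error only. Summed over the members, the level was 804, 721 and 884 CPM on NCD and 869, 653 and 1026 CPM on HFD, each in the order of the sample numbers, as everywhere in the text. HFD2 was thus the lowest library and HFD3 the highest for the pathway, both on the same diet. HFD3 also stood apart in markers of neighbouring tissue. Its summed level of 7 pituitary markers was 60.0 CPM, of which *Cga* alone made up 48.0 CPM, against 5.39 to 20.2 CPM in the other 5 libraries. The sum of 8 markers of vascular leptomeningeal fibroblasts was 233 CPM in HFD3, against 65.7 to 120 CPM in the others. For *Inhba*, *Nog*, *Fst*, *Bmp7*, *Gdf11*, *Gdf1*, *Acvr1b*, *Tgfbr3* and *Smad1*, each library was also left out in turn. Where this moved the log2 fold change by over 1.5 times, the value without that library is given, for *Gdf1* among the alternative settings. For other members, some of which set an end of a range given by role, such values are not given.

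Of the 51 members, 37 passed the filter on low counts and entered edgeR's quasi-likelihood test with 14188 genes in all. HFD was higher in 22 of them and lower in 15. The 22 include *Gdf1*, whose sign depended on the setting, as described below. The median log2 fold change (HFD against NCD) of the members was 0.09, against 0.00 (0.00317) for all genes tested. The fold changes ran from -0.88 to 1.16 on the log2 scale, 29 of the 37 were under 0.5 in size, and 35 were within 2 standard errors of 0. At the threshold used by the study, an unadjusted p under 0.05 with a change of more than 1.5-fold, 2 members passed, *Inhba* as higher and *Nog* as lower. That was 5.41% of the members tested, where 1.90% of all genes passed (1.01% as higher and 0.888% as lower), and the excess rests on these 2 genes. No member had an adjusted p under 0.05 in edgeR (0.0564% of all genes did) or in DESeq2, and the lowest adjusted p of a member in edgeR was 0.999. At an unadjusted p under 0.05 without a limit on the fold, edgeR called the same 2 members, and 2.30% of all genes.

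**Figure D1:**
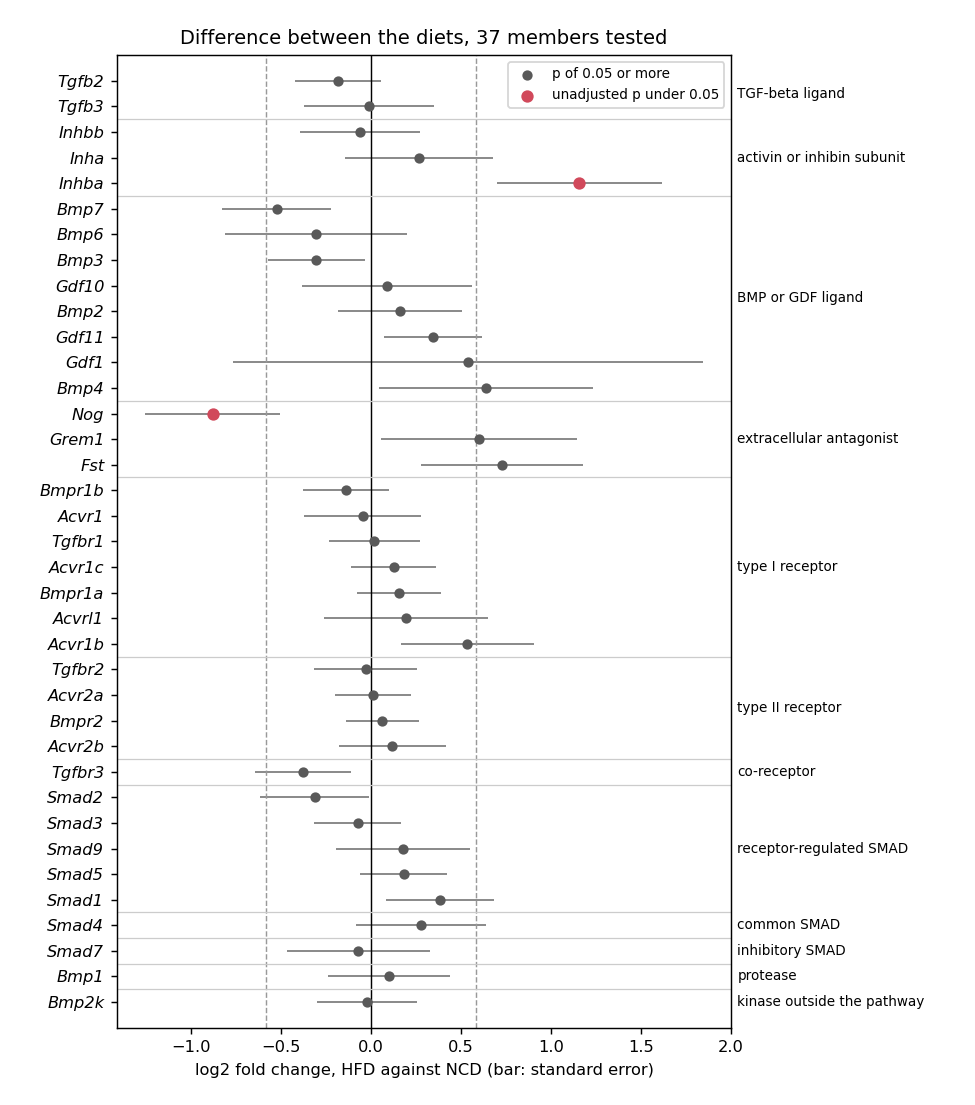
Log2 fold change (HFD against NCD) of the 37 members tested, with the standard error as a bar, ordered by role. The dashed lines mark a 1.5-fold change, and *Inhba* at 1.16 and *Nog* at -0.88 (red) have an unadjusted p under 0.05.

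*Inhba*, on chr13:16011851-16031621 (GRCm38, plus strand), encodes the beta A subunit shared by activin A and inhibin A. Its counts were 46, 15 and 18 in NCD1 to NCD3 and 36, 33 and 44 in HFD1 to HFD3. Scaled to library size, this was 2.77, 1.53 and 2.71 CPM on NCD and 4.47, 3.25 and 8.28 CPM on HFD. The diets did not overlap, and HFD3 lay far above the other HFD samples. Among the members tested, *Inhba* was alone in lying above NCD in every HFD sample, and 3.24% of all genes did so. The mean was 2.33 ± 0.70 CPM on NCD and 5.34 ± 2.62 CPM on HFD (SD, n = 3). The log2 fold change was 1.16 ± 0.46 (standard error), with p = 0.0257 and adjusted p = 0.999 in edgeR and p = 0.1 in an exact permutation test, the smallest that 3 samples against 3 allow. It was 0.72 without HFD3 and 0.93 without NCD2, and *Inhba* passed in neither case. On FPKM, which also divides by transcript length, *Inhba* was at 1.32, 0.55 and 0.99 on NCD and 1.62, 1 and 2.79 on HFD. On that scale HFD2 fell below NCD1, so the diets overlapped, and the difference on log2(FPKM + 1) was 0.49 and did not pass in limma. The ratio of count to FPKM implied a transcript length of 2.19 kilobases in NCD1 and 3.15 in HFD2, so the length behind the FPKM was not the same in both.

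The other activin and inhibin subunits did not pass. *Inhbb*, the beta B subunit, was the steadiest member, with 4.46, 4.89 and 4.81 CPM on NCD and 4.72, 4.14 and 4.70 CPM on HFD. *Inha*, whose product turns a beta subunit into inhibin, was at 4.21, 4.99 and 9.63 CPM on NCD and 6.46, 5.03 and 11.1 CPM on HFD. The diets overlapped for both, and *Inha* was highest in HFD3 and then in NCD3. As a share of *Inhba* and *Inhbb* on the FPKM scale, *Inhba* made up 54.8%, 32.5% and 47.6% on NCD and 59.3%, 51.5% and 71.0% on HFD. HFD2 lay below NCD1, so the diets overlapped, and the means were 45.0% ± 11.3 on NCD and 60.6% ± 9.79 on HFD (SD, n = 3). An exact permutation test, which cannot go below 0.1 here, gave p = 0.2, and p = 0.6 when adjusted over the 6 shares compared. On CPM this share was higher in each HFD sample than in any on NCD (exact permutation test, p = 0.1, adjusted p = 0.6). Follistatin (*Fst*), which binds activin outside the cell, had 1.63, 2.54 and 1.5 CPM on NCD and 3.98, 2.96 and 2.45 CPM on HFD. NCD2 lay just above HFD3, and the log2 fold change was 0.73 ± 0.45 (standard error; edgeR, adjusted p = 0.999). *Fst* was at 1.02, 1 and 0.55 FPKM on NCD and 2.01, 2.05 and 1.59 FPKM on HFD, with no overlap, and limma gave a difference of 0.64 on log2(FPKM + 1) that passed without adjustment. The ratio of count to FPKM for *Fst* implied a transcript length between 1.40 and 2.64 kilobases depending on the sample, so the length behind its FPKM was not the same in every library.

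The 300 bases around the annotated start of *Inhba* are shown because, among the 37 members tested, this one had the largest difference between the diets. The sequence is from RefSeq (GRCm38.p6, chr13:16011601-16011900, plus strand), with 250 bases before the start and 50 after it. It held none of the 3 SMAD-related motifs searched for on both strands, which were the palindrome GTCTAGAC, CAGACA and GGCGCC.

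*Inhba*: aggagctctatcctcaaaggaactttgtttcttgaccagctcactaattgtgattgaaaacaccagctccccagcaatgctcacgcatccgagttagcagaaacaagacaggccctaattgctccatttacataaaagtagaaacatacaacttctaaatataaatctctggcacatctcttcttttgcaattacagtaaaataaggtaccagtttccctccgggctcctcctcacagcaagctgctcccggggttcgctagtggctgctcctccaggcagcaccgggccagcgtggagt

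Noggin (*Nog*, chr11:89300638-89302332, minus strand) had the largest difference in the other direction among the members tested. It had 85, 62 and 50 counts on NCD and 33, 23 and 21 on HFD, which equalled 5.12, 6.31 and 7.52 CPM against 4.10, 2.27 and 3.95 CPM. Every HFD sample lay below every NCD sample, and HFD2 was the lowest. No other member tested showed this, and 3.24% of all genes did. The mean was 6.32 ± 1.20 CPM on NCD and 3.44 ± 1.02 CPM on HFD (SD, n = 3). The log2 fold change was -0.88 ± 0.38 (standard error), with p = 0.0363 and adjusted p = 0.999 in edgeR and p = 0.1 in an exact permutation test. On FPKM the values were 3.15, 3.68 and 4.29 on NCD and 2.43, 1.29 and 2.40 on HFD, again with no overlap. Its fold change on the log2 scale was -0.88 without NCD2, -0.74 without NCD3 and -0.64 without HFD2, and *Nog* passed in none of these 3 fits. Gremlin (*Grem1*), another extracellular BMP antagonist, was at 1.02, 1.02 and 2.41 CPM on NCD and 2.73, 1.38 and 2.45 CPM on HFD, and the diets overlapped. On the FPKM scale *Nog*, *Fst* and *Grem1* made up 11.8% ± 1.1 of all ligands and antagonists among the members on NCD and 10.4% ± 2.87 on HFD (SD, n = 3; exact permutation test, p = 0.6).

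**Figure D2:**
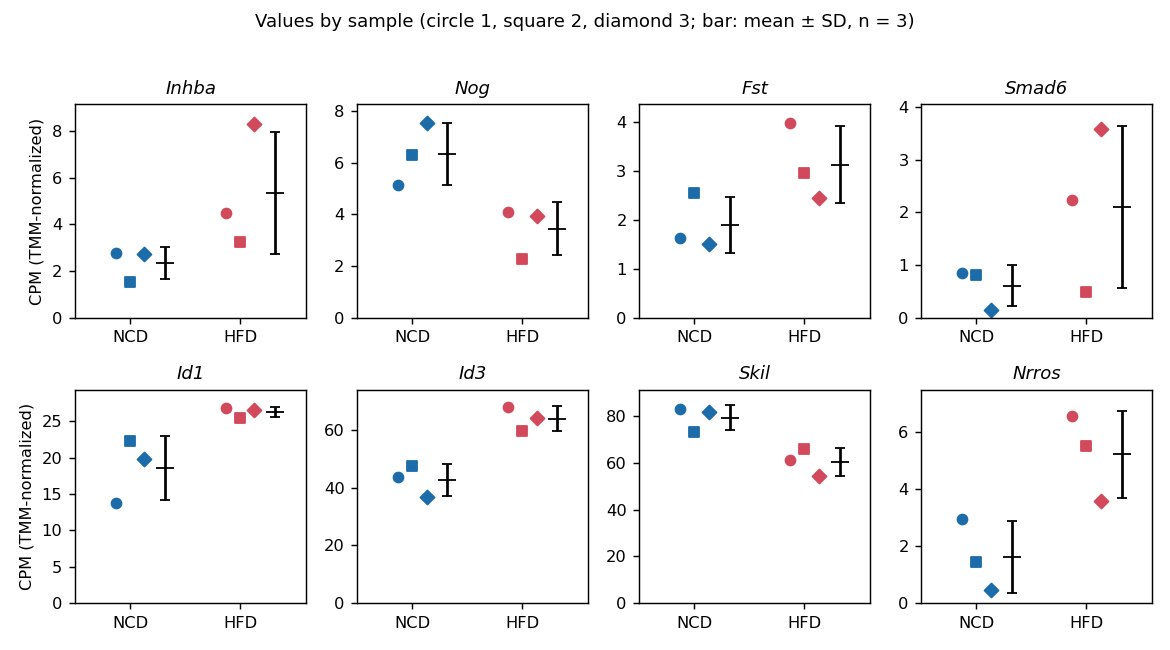
CPM of 8 genes in each sample, with NCD in blue, HFD in red, the sample number as the marker shape and the mean ± SD (n = 3) as a bar; each vertical axis starts at 0. The diets do not overlap for *Inhba*, *Nog*, *Id1*, *Id3*, *Skil* and *Nrros*, and they overlap for *Fst* and *Smad6*.

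Among the ligands, 8 of the 20 BMP and GDF genes and 2 of the 3 TGF-beta genes were tested, and none passed. The BMP and GDF ligands had log2 fold changes from -0.53 to 0.64. The upper end was *Bmp4*, for which HFD3 alone lay above the NCD range. *Gdf11*, whose product signals through SMAD2 and SMAD3 as activin does, had the highest mean FPKM of the ligands over the 6 samples. On NCD alone its mean of 5.85 FPKM was below that of *Tgfb2*, at 6.56 FPKM. *Gdf11* was at 4.5, 5.75 and 7.3 FPKM on NCD and 7.58, 5.17 and 9.76 FPKM on HFD. HFD2 was within the NCD range, and the log2 fold change was 0.34 ± 0.27 (standard error; edgeR, adjusted p = 0.999). It was 0.14 without NCD1, 0.13 without HFD3, 0.56 without NCD3 and 0.54 without HFD2, and did not pass in any of these fits. *Bmp7*, a BMP that brain tissue expresses, was at 15.3, 14.5 and 9.63 CPM on NCD and 6.46, 9.56 and 11.7 CPM on HFD. NCD3 was below HFD3, and the log2 fold change of -0.53 ± 0.30 (standard error; edgeR, adjusted p = 0.999) passed, unadjusted, without NCD3 (-0.70) or without HFD3 (-0.72), and was -0.32 without HFD1. *Bmp4* varied over both diets, with 2.71, 1.32 and 0.752 CPM on NCD and 2.36, 1.28 and 4.52 CPM on HFD. *Tgfb2* was the main TGF-beta ligand, at 6.34, 6.80 and 6.55 FPKM on NCD and 7.57, 3.96 and 5.94 FPKM on HFD. It made up 70.4% ± 10.8 of the summed FPKM of the 3 TGF-beta genes on NCD and 66.8% ± 9.81 on HFD (SD, n = 3; exact permutation test, p = 0.8). *Tgfb1* was below the filter, with counts of 7, 6 and 1 on NCD and 2, 3 and 1 on HFD.

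The order of levels per length was led by the intracellular and receptor members. Averaged over the 6 samples, *Smad1* had 16.6 FPKM, the type II receptor *Acvr2a* 13.5, *Smad2* 11.4, the type I receptor *Bmpr1a* 10.3 and *Bmpr2* 9.87. *Smad4* (8.78), *Smad5* (8.15), *Acvr2b* (6.99), *Gdf11* (6.68) and *Gdf1* (6.20) followed. The ranges of neighbours in this order overlapped across the samples. *Nog* came 22nd with 2.87 FPKM, *Inhba* 30th with 1.38 and *Smad6* 36th with 0.462. At a mean of at least 50 counts, a stricter filter, both were left out and 0 of 29 members passed, where 1.5% of all genes did.

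**Figure D3:**
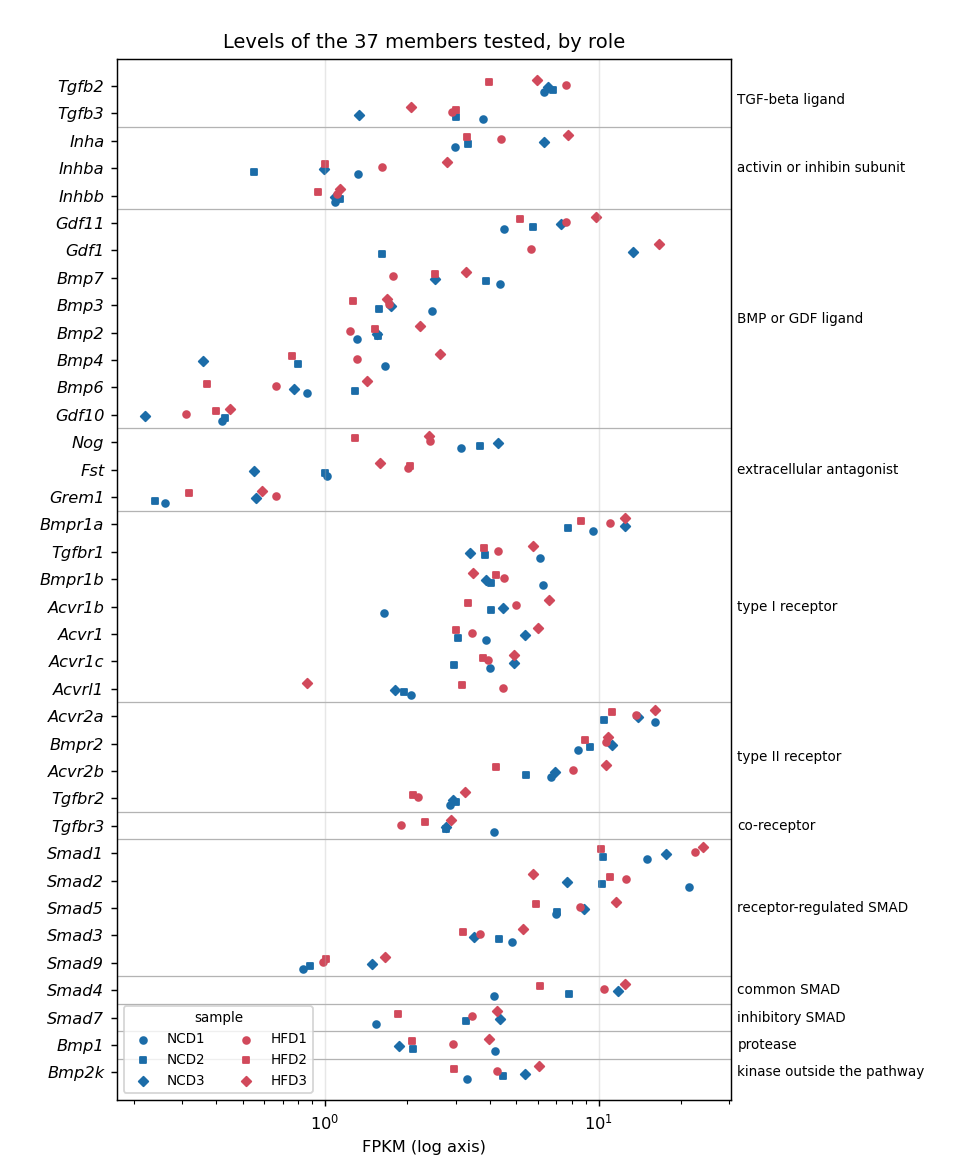
FPKM of the 37 members tested in each of the 6 samples on a log axis, grouped by role, with NCD in blue and HFD in red. *Gdf1* was listed at 0 in NCD1 and HFD2, which a log axis cannot show, and receptors and SMADs reach the highest levels, led by *Smad1* with a mean of 16.6 FPKM.

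All 7 type I and all 4 type II receptors were tested and none passed. The type I receptors had log2 fold changes from -0.14 to 0.54 and the type II receptors from -0.03 to 0.12. *Bmpr1a*, a type I receptor for BMPs, was at 9.52, 7.75 and 12.4 FPKM on NCD and 11.0, 8.61 and 12.4 FPKM on HFD. *Acvr2a*, which binds activins and several BMPs, was at 16.1, 10.5 and 13.9 FPKM on NCD and 13.7, 11.2 and 16.0 FPKM on HFD. The diets covered nearly the same range for both. *Acvr1b*, the main type I receptor for activin, had 6.98, 18.1 and 20.5 CPM on NCD and 22, 15.2 and 28.4 CPM on HFD. NCD1 was far below the other 5 samples, HFD2 was within the NCD range, and the log2 fold change was 0.54 ± 0.37 (standard error; edgeR, adjusted p = 0.999). It was 0.16 without NCD1 and 0.31 without HFD3, while without NCD3 it was 0.81 and passed, unadjusted. *Acvrl1*, a type I receptor known from endothelium, was at 5.36, 5.80 and 5.42 CPM on NCD and 9.69, 7 and 1.88 CPM on HFD, so the HFD samples lay on both sides of NCD. The 8 endothelial markers summed to 218, 212 and 185 CPM on NCD and 212, 219 and 216 CPM on HFD, with *Ly6c1* the most abundant per length. Of these markers 4 were higher and 4 lower. *Ly6c1* passed as higher, and *Cldn5* had p under 0.05 in edgeR as lower, under 1.5-fold, both without overlap between the diets. The part of these markers in the spread of *Acvrl1* was not tested. *Bmpr1a* and *Bmpr1b* together made up 44.9% ± 2.23 of the summed FPKM of the type I receptors on NCD and 41.7% ± 1.68 on HFD (SD, n = 3; exact permutation test, p = 0.2). *Tgfbr3*, the co-receptor betaglycan, which presents TGF-beta 2 and inhibin, had 24.1, 15.7 and 15.9 CPM on NCD and 11.6, 14.6 and 17.1 CPM on HFD. Its log2 fold change was -0.38 ± 0.27 (standard error; edgeR, adjusted p = 0.999), and it was -0.15 without NCD1 and -0.24 without HFD1.

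Of the 8 SMADs, 7 were tested and none passed. *Smad1*, the most abundant member, was at 15.0, 10.4 and 17.6 FPKM on NCD and 22.5, 10.2 and 24.1 FPKM on HFD. HFD1 and HFD3 lay above every NCD sample and HFD2 below every one. The log2 fold change was 0.38 ± 0.30 (standard error; edgeR, adjusted p = 0.999), and it was 0.19 without HFD3, 0.20 without NCD2, 0.23 without HFD1 and 0.59 without NCD3. Without HFD2 it was 0.67 and passed without adjustment. *Smad2*, which carries TGF-beta and activin signals, was at 58.2, 29.7 and 29.0 CPM on NCD and 38.7, 34.1 and 21.4 CPM on HFD, highest in NCD1 and lowest in HFD3. *Smad4*, the common partner, was at 13.4, 26.7 and 41.1 CPM on NCD and 35.2, 21.3 and 41.2 CPM on HFD, and the inhibitory *Smad7* at 6.32, 14.3 and 19.3 CPM on NCD and 11.9, 8.18 and 17.7 CPM on HFD. Both were lowest in NCD1, and the diets overlapped. *Smad2* and *Smad3* made up 42.1% ± 12.6 of the summed FPKM of receptor-regulated SMADs on NCD and 34% ± 11.3 on HFD (SD, n = 3; exact permutation test, p = 0.5). *Smad6* and *Smad7* made up 6.45% ± 2.69 of all SMADs on NCD and 6.68% ± 1.58 on HFD (SD, n = 3; exact permutation test, p = 0.8).

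*Smad6*, an inhibitory SMAD that BMP signals are known to induce, was below the filter and was singled out after its values were seen. On chr9:63953076-64022059 (GRCm38, minus strand) it had 14, 8 and 1 counts on NCD and 18, 5 and 19 on HFD, which equalled 0.843, 0.814 and 0.150 CPM against 2.24, 0.493 and 3.57 CPM. HFD2 lay below NCD1 and NCD2, so the diets overlapped, and the single count in NCD3 was under the detection floor. With every gene of at least 1 count in the fit, its log2 fold change was 1.63 ± 0.77 (standard error; edgeR, adjusted p = 0.998), and DESeq2 gave 1.71 (adjusted p = 0.9999). Both passed the threshold without adjustment. Windows were at hand for 35 of the 51 members. The others, among them *Smad2*, *Smad4*, *Smad7*, *Nog* and *Fst*, had none and were not searched for motifs. The window around the annotated start of *Smad6* is shown because it was alone among the 43 windows searched in holding the palindromic SMAD motif GTCTAGAC. The motif is in capitals at bases 247 to 254. The sequence is from RefSeq (GRCm38.p6, chr9:64022010-64022309, minus strand), 5′ to 3′.

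*Smad6*: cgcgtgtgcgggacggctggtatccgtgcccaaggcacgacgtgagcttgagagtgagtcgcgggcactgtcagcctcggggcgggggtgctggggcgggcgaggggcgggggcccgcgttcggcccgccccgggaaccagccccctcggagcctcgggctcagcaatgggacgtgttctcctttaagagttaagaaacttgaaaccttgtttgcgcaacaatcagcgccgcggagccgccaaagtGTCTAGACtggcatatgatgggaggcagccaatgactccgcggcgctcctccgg

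Across all 32841 windows of this length, 0.213% held GTCTAGAC, which for the members was 1 of 43 (2.33%). CAGACA, whose reverse complement is TGTCTG, was in 21.0% of all windows and 5 of the 43 member windows (11.6%), and GGCGCC in 11.9% of all windows and 11 member windows (25.6%). The member windows with GGCGCC include overlapping windows of *Smad5*, counted separately, and a window that *Gdf1* shares with *Cers1*. The palindrome holds no copy of CAGACA or TGTCTG. These are matches of letters in a window, and binding was not measured.

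The other members below the filter were *Bmp5*, *Bmp8a*, *Bmp8b*, *Bmp10*, *Bmp15*, *Gdf2*, *Gdf3*, *Gdf5*, *Gdf6*, *Gdf7*, *Gdf9* and *Gdf15*, all of them ligands, besides *Tgfb1* and *Smad6* given above. None had more than the 65 counts that *Smad6* had over the 6 samples, *Gdf2* had no count at all, and on the CPM scale the diets overlapped in each. *Bmp8b* had counts of 4, 8 and 4 on NCD and 0, 3 and 0 on HFD, and its near-identical neighbour *Bmp8a* had 10 counts in all, so the division of reads between the pair is uncertain. Among the remaining members, *Bmp1* is a protease named for its discovery with the BMPs and *Bmp2k* a kinase outside the pathway that carries the name. *Bmp1* was at 4.17, 2.09 and 1.87 FPKM on NCD and 2.93, 2.08 and 3.96 FPKM on HFD, and *Bmp2k* at 3.31, 4.48 and 5.40 FPKM on NCD and 4.26, 2.96 and 6.07 FPKM on HFD. The diets overlapped in both.

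*Gdf1*, a ligand related to Nodal, was the most variable member, and its values may depend on how reads were divided, which was not tested. The annotation places it on chr8:70329817-70331587 (plus strand), inside *Cers1* (ceramide synthase, chr8:70315775-70331592, plus strand), and the 2 genes are known to share a transcript. *Gdf1* had 0, 22 and 123 counts on NCD and 61, 0 and 116 on HFD, where *Cers1* had 2295, 940 and 324 on NCD and 705, 1017 and 230 on HFD. The share of the summed counts given to *Gdf1* was 0%, 2.29% and 27.5% on NCD and 7.96%, 0% and 33.5% on HFD. It was 0% in NCD1 and HFD2, the largest libraries, and highest in HFD3 and NCD3, the smallest ones. For *Gdf1* the log2 fold change was 0.54 ± 1.31 (standard error; edgeR, adjusted p = 0.999), and that of the summed counts, tried after the data had been seen, was -0.22 and did not pass. No direction is read from *Gdf1* for this reason, although its fitted sign counts among the 22 members given as higher.

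**Figure D4:**
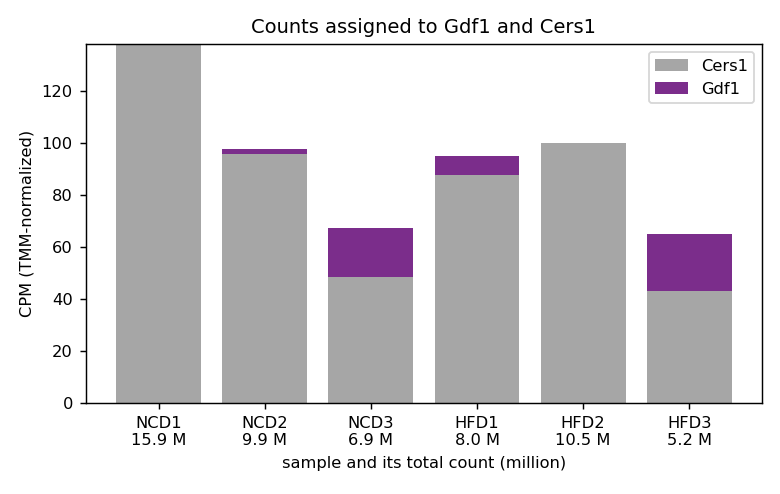
CPM assigned to *Cers1* (grey) and *Gdf1* (purple) in each sample as stacked bars from 0, with the total count of each library under its name. *Gdf1* takes 33.5% of the summed counts in HFD3 and 27.5% in NCD3, and none in NCD1 and HFD2.

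Much of the spread among the members ran across libraries of the same diet. The median SD of the members within a diet was 0.41 on the log2 CPM scale, against 0.31 for all genes tested. HFD3 was the highest sample for 19 of the 37 members (51.4%, against 25.0% of all genes) and HFD2 was the highest for 0 (15.1% of all genes) and the lowest for 12 (32.4%, against 13.7%). The median deviation of the members from their own mean was 0.46 in HFD3, 0.12 in NCD3, 0.04 in HFD1, -0.10 in NCD2, -0.27 in HFD2 and -0.12 in NCD1 on the log2 scale, and that of all genes lay between -0.00765 and 0.0339. In that order, the libraries go from the smallest total count to the largest. When the log2 total count was added to the fit, an alternative chosen after seeing the data, the median log2 fold change of the members was -0.06 in place of 0.09. *Nog* was then the one member past the threshold, and *Inhba* had a log2 fold change of 0.84. That of *Smad1* was then 0.11, of *Acvr1b* 0.12 and of *Gdf11* 0.03. The direction of the members' median thus turned with this term.

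**Figure D5:**
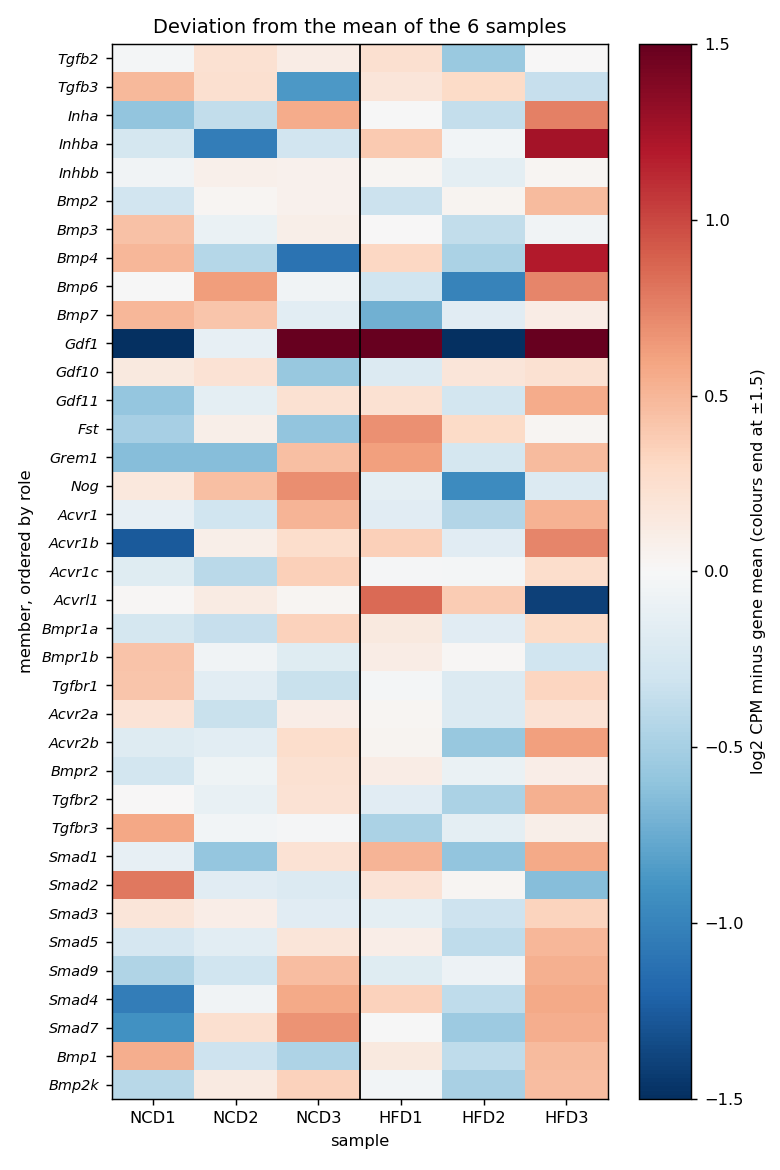
Deviation of the log2 CPM of each of the 37 members from its mean over the 6 samples, in red where higher and in blue where lower, with colours ending at ±1.5. The HFD3 column is mostly red and the HFD2 column mostly blue, though both are HFD samples.

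Genes of the pathway outside the members were taken from 4 lists, with 75 genes in all, of which 65 were tested. Of these, 31 were higher and 34 lower on HFD, with a median log2 fold change of -0.02. One list held the targets of the pathway. Of its 20 genes, which include the members *Smad6* and *Smad7*, 18 were tested, 8 higher and 10 lower, and none passed the threshold with its limit on the fold, although *Id3* had p under 0.05. *Id3* (chr4:136143497-136145755), which encodes an inhibitor of DNA binding that BMP signals induce through SMAD1 and SMAD5, was at 43.8, 47.6 and 36.9 CPM on NCD and 68.2, 59.6 and 64.2 CPM on HFD. All HFD samples were above all NCD samples, and the 1.49-fold difference was just under the limit. The log2 fold change was 0.58 ± 0.19 (standard error), from a mean of 42.8 ± 5.46 CPM to 64.0 ± 4.30 CPM (SD, n = 3), with p = 0.0108 and adjusted p = 0.999 in edgeR and p = 0.1 in an exact permutation test. Without HFD1 it was 0.53 and p was no longer under 0.05. *Id1* (chr2:152736251-152737410), of the same family, was at 13.7, 22.3 and 19.9 CPM on NCD and 26.8, 25.4 and 26.5 CPM on HFD. The diets did not overlap, and its log2 fold change was 0.50 ± 0.24 (standard error; edgeR, adjusted p = 0.999). It was 0.30 without NCD1, and without NCD2 it was 0.65 with an unadjusted p under 0.05. The 2 other genes of the family, *Id2* and *Id4*, both had a log2 fold change of -0.05.

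*Skil*, a target of TGF-beta that encodes a repressor of SMADs and stands in 2 of the lists, was at 83.0, 73.3 and 81.9 CPM on NCD and 61.1, 66.0 and 54.2 CPM on HFD. Every HFD sample was below every NCD sample, and the log2 fold change was -0.39 ± 0.19 (standard error; edgeR, adjusted p = 0.999). Of the 20 intracellular regulators 19 were tested, 11 higher and 8 lower, and of the 14 co-receptors and other ligands 7 were tested, 2 higher and 5 lower, with none past the threshold in either list. Of the 26 extracellular modulators 25 were tested, 11 higher and 14 lower, and 1 passed. This was *Nrros*, which in microglia holds latent TGF-beta 1 at the cell surface. *Nrros* had 49, 14 and 3 counts on NCD and 53, 56 and 19 on HFD, and the 3 counts in NCD3 equalled the detection floor. Scaled to library size, this was 2.95, 1.43 and 0.451 CPM on NCD and 6.59, 5.52 and 3.57 CPM on HFD, with no overlap. Its log2 fold change was 1.6 ± 0.54 (standard error), with p = 0.0109 and adjusted p = 0.999 in edgeR and p = 0.1 in an exact permutation test, and it passed with any 1 sample left out. The log2 fold change of *Nrros* was 2.39 without NCD1, 1.24 without NCD3 and 2.42 with the term for the total count. Of 7 microglial markers 4 were higher and 3 lower (*Cx3cr1*, *P2ry12* and *Tmem119*), with a median log2 fold change of 0.06, and 2, *C1qa* and *C1qb*, had p under 0.05 as higher, both under 1.5-fold. The list summed to 281, 287 and 232 CPM on NCD and 309, 306 and 309 CPM on HFD, with *C1qb* the most abundant per length, and its part in the *Nrros* difference was not tested.

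Markers of other cells moved with some of the members. All 7 tanycyte markers (tanycytes line the floor of the third ventricle beside the ARC) were higher on HFD. Of these, *Crym* and *Col23a1* passed the threshold, each with overlap between the diets. The 7 markers summed to 215, 173 and 258 CPM on NCD and 331, 173 and 427 CPM on HFD, with *Vim* the most abundant per length. Their sum was highest in HFD3, HFD1 and NCD3, in the same order as *Smad1*. Of the 7 pituitary markers 3 were tested, and *Cga*, which encodes the subunit shared by LH, FSH and TSH, passed the threshold as higher. It was at 9.39, 4.17 and 14.9 CPM on NCD and 14.7, 10.6 and 48.0 CPM on HFD, and like *Inhba* and *Bmp4* it was highest in HFD3. *Gh* and *Prl*, the defining markers of 2 anterior pituitary cell types, had no count in any sample. The 8 markers of vascular leptomeningeal fibroblasts summed to 120, 111 and 108 CPM on NCD and 84.3, 65.7 and 233 CPM on HFD, with *Igf2* the most abundant per length, and none at p under 0.05. Of 15 ARC neuron markers 12 were higher and 3 of them, *Cartpt*, *Gal* and *Tac2*, passed, with *Cartpt* the most abundant per length. The diets overlapped for *Tac2* and did not for *Cartpt* and *Gal*. That list summed to 1856, 2803 and 2120 CPM on NCD and 2638, 2473 and 2885 CPM on HFD. *Kiss1* had no count in NCD1 and HFD1, and 27, 32, 21 and 42 counts in NCD2, NCD3, HFD2 and HFD3, and the other 14 markers had counts in every library. Of 5 paraventricular nucleus markers 2, *Avp* and *Oxt*, passed as lower, while *Trh* was higher in every HFD sample than in any on NCD, with p under 0.05 and under 1.5-fold. The list, with *Avp* the most abundant, summed to 2954, 5885 and 2618 CPM on NCD and 1412, 1486 and 1315 CPM on HFD. Of 8 mural cell markers all had a fitted log2 fold change below 0, which for *Pdgfrb* and *Rgs5* was close to 0, and *Acta2* and *Tagln*, both genes of contractile vessel cells, passed and did not overlap between the diets, as *Nog* did. They summed to 295, 289 and 223 CPM on NCD and 243, 271 and 232 CPM on HFD, with *Vtn* the most abundant per length. Of 8 astrocyte markers 3 were higher and 5 lower, and *Gfap* passed as higher, with overlap between the diets. All 5 red blood cell genes were lower and none passed. The part of these markers in the differences of *Inhba*, *Nog*, *Id1* and *Id3* was not tested.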

How the data were processed

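RNA was measured in 3 NCD and 3 HFD samples, grouped by their titles. The authors cleaned the reads, removed ribosomal ones with bowtie2, aligned the rest with HISAT2 and derived values per gene with StringTie and RSEM. Versions, annotation release and use of strand are not given in the sources used here, and the submitters' processing notes name mm10. The deposited table holds the authors' read count per gene and sample, not normalized, and their FPKM, scaled by transcript length and mapped reads. The authors' mean FPKM per group, log2 fold change, p-value and FDR were not used. RSEM's division of reads between overlapping genes can move single values.

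Identifiers were matched to GENCODE M21 (GRCm38), which holds 22267 of 22322. Genes passing edgeR's filterByExpr were normalized with TMM (factors from 0.967 to 1.04) and tested, two-sided, by quasi-likelihood in edgeR (glmQLFTest), and p-values were adjusted by Benjamini-Hochberg over all genes tested. The common biological coefficient of variation was 0.244. CPM are TMM-normalized, except the members' sums and the detection floors, which were scaled to the library totals, and log2 CPM used a prior count of 2. Shares within a class were compared with exact permutation tests, which cannot go below 0.1 here. The fit was tested on simulated data. Alternatives were RLE size factors, library totals, DESeq2's Wald test, other count filters, limma on log2(FPKM + 1) for genes of at least 0.5 FPKM on average, a replicate block and each sample left out. The log2 total count as a covariate and the sum of *Gdf1* and *Cers1* were chosen after seeing the data.

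Values in every sample were given for members with p under 0.05, for members whose diets did not overlap with a change over 1.5-fold and for the most expressed member of each role. The other genes named were chosen after their values were seen. The members, the lists and the rule were chosen with earlier results of these data known. Versions were 4.0.16 for edgeR, 1.42.0 for DESeq2, 3.58.1 for limma, 4.3.3 for R, 3.11.15 for Python, 1.17.1 for scipy, 2.3.3 for pandas and 3.10.9 for matplotlib.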

Additional observations from a re-analysis of the deposited data

How the results depend on the processing

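The 14 members with the fewest counts were not tested. No member had an adjusted p under 0.05 under any alternative. The number of members past p under 0.05 and 1.5-fold was 2 in edgeR, 3 of 50 in DESeq2 (against 1.65% of all genes) and with at least 1 count (2.35%), 0 with a mean of at least 50 counts, 1 with a term for the log2 total count (1.87% of all genes, chosen after seeing the data) and from 0 to 4 with 1 sample left out (0 without NCD2 and 4 without NCD3, against 1.5% and 6.78% of all genes). The number of genes past it, 270, was 427 among genes with at least 1 count, 982 without NCD3 and 606 without HFD2. The median log2 fold change of the members ran from -0.0808 without HFD3 to 0.212 without NCD3. Members without overlap between the diets numbered from 1 to 6 as higher (6 of 37 without NCD3, against 12% of all genes) and from 1 to 5 as lower (5 of 37 without HFD3, against 7.54%) with 1 sample left out. The cause of these moves was not tested.

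Differences in shares (HFD minus NCD, in percentage points) turned in direction for *Tgfb2* among TGF-beta ligands (-8.11 to 2.34 with 1 sample left out), for *Smad6* and *Smad7* among SMADs (-1.33 to 1.02, and -0.359 on CPM) and for the antagonists (-2.37 to 0.32, and -0.688 on CPM). With 1 sample left out, that of *Inhba* ran from 9.44 to 20.6 that of *Smad2* and *Smad3* from -14.9 to -2.48 and that of *Bmpr1a* and *Bmpr1b* from -4.38 to -2.15 (-1.25 on CPM). The log2 fold change of *Gdf1* was -0.13 without NCD1, 0.10 without NCD2, 1.17 without HFD2, -0.83 without HFD3, 3.25 without NCD3, -1.02 with that term and -0.22 when summed with *Cers1* (both chosen after seeing the data). Of 179 values of 13 single genes under alternatives, 175 kept their direction, 8 lost the call and 10 gained one. *Inhba* (1.11) and *Nog* (-0.89) kept p under 0.05 with the replicate block, and *Id1* (0.53) then passed it. The block left 2 members past the threshold and moved all genes past it from 270 to 376. For samples of the same number, the deviations from the diet means correlated at -0.0116, 0.113 and 0.369 for numbers 1, 2 and 3. The value for number 3 was the highest of all pairs across the diets, while NCD1 correlated better with HFD2 (0.311) than with HFD1. With 3 samples per diet these values cannot decide whether samples of a number shared a batch, and this was not tested.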
